A study of Homo sapiens with 24 samples.

Results

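The genes described here encode the machinery that builds the mitotic spindle and attaches chromosomes to it, together with the kinases that drive it. They are 40 genes taken by symbol from a written list, 40 of the 35587 gene symbols in the deposited tables, and all 40 were found in the tables of both cell lines. By role they were split into mitotic kinases and their activators (5 genes), the chromosomal passenger complex (4), the spindle assembly checkpoint (6), the centromere and kinetochore (12), mitotic kinesins (9), and the spindle midzone and cytokinesis (4). RNA came from MOLM14 and OCI-AML2, both established human lines grown from acute myeloid leukaemia (AML), and each was kept for 24 h with AZ2, with ARM165 or with DMSO, the solvent control. The 6 groups of line and treatment held 4 libraries each, and all groups of a line share its genotype. The study's title names a degrader molecule directed at PI3K gamma and AKT signalling, and the labels do not say which of the compounds that is. The labels give neither doses nor whether the 4 libraries of a group came from separate cultures, so the p-values rest on a spread among libraries that could be technical alone.

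Cells commit to mitosis when CDK1 bound to cyclin B becomes active, helped by polo-like and Aurora kinases. Chromosomes then attach to spindle microtubules through kinetochores, protein plates built on centromeres that carry the histone variant CENPA. Until every kinetochore is attached, the spindle assembly checkpoint holds CDC20 and so keeps the anaphase-promoting complex (APC/C) from starting chromosome separation. After anaphase, kinesins and microtubule bundlers of the midzone place the cleavage furrow. Many of these genes are transcribed mainly in G2 and M phase in dividing cells, so their mRNA is often read as a proliferation signature in leukaemia.

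With ARM165, 39 of the 40 genes fell in MOLM14, where 34.0% of the 15288 genes tested fell, and 39 of 40 fell in OCI-AML2, where 31.6% of 15377 did. MIS12, a kinetochore assembly subunit, was the exception in each line: it rose in MOLM14 and did not pass the test in OCI-AML2. The median log2 change against DMSO was -1.16 in MOLM14, a level 0.446 times that with DMSO, and -1.40 in OCI-AML2, 0.379 times that with DMSO. Over all genes tested the medians were 0.031 and 0.034. With AZ2, 0 of 40 genes passed the test in MOLM14 and 0 of 40 in OCI-AML2, where 0% and 0.111% of all genes passed.

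Values are normalized estimated read counts per gene, changes are log2 ratios of (value + 1) with their standard error (SE), and a gene passed at a Benjamini-Hochberg adjusted p under 0.05 in limma over all genes tested. ARM165 altered much of the transcriptome: 69.5% of all genes tested in MOLM14 and 65.8% in OCI-AML2 passed in one direction or the other. A log2 change of -1 or lower was found for 31 of the 40 genes in MOLM14, where 13.0% of all genes had one. In OCI-AML2 it was found for 32 of 40, against 15.4% of all genes. Every ARM165 library lay below every DMSO library for 39 of 40 genes in MOLM14, against 30.7% of all genes. The count was 39 of 40 in OCI-AML2 as well, against 28.8% of all genes. No member came close to the filter on low values, since the lowest reading in any library was 36.6, for SPC25 in MOLM14. In RNA from whole cultures, fewer cells in G2 and M phase and less of each mRNA per cell cannot be told apart. Scaled to equal library totals instead, the median of all genes in MOLM14 moved to 0.22 and that of the 40 genes to -0.97. With that scaling 4142 genes were called lower and 6676 higher in MOLM14, in place of 5196 and 5427, and 38 of the 40 still fell.

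Averaged over the 40 genes, each library's log2 level relative to its line's DMSO mean ran from -0.036 to 0.022 with DMSO, -0.033 to 0.058 with AZ2 and -1.25 to -1.06 with ARM165 in MOLM14. The same average in OCI-AML2 ran from -0.060 to 0.070, -0.049 to 0.035 and -1.42 to -1.24. The 4 ARM165 libraries of each line were thus set apart from the other 8, and the DMSO and AZ2 libraries overlapped.

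**Figure D1:**
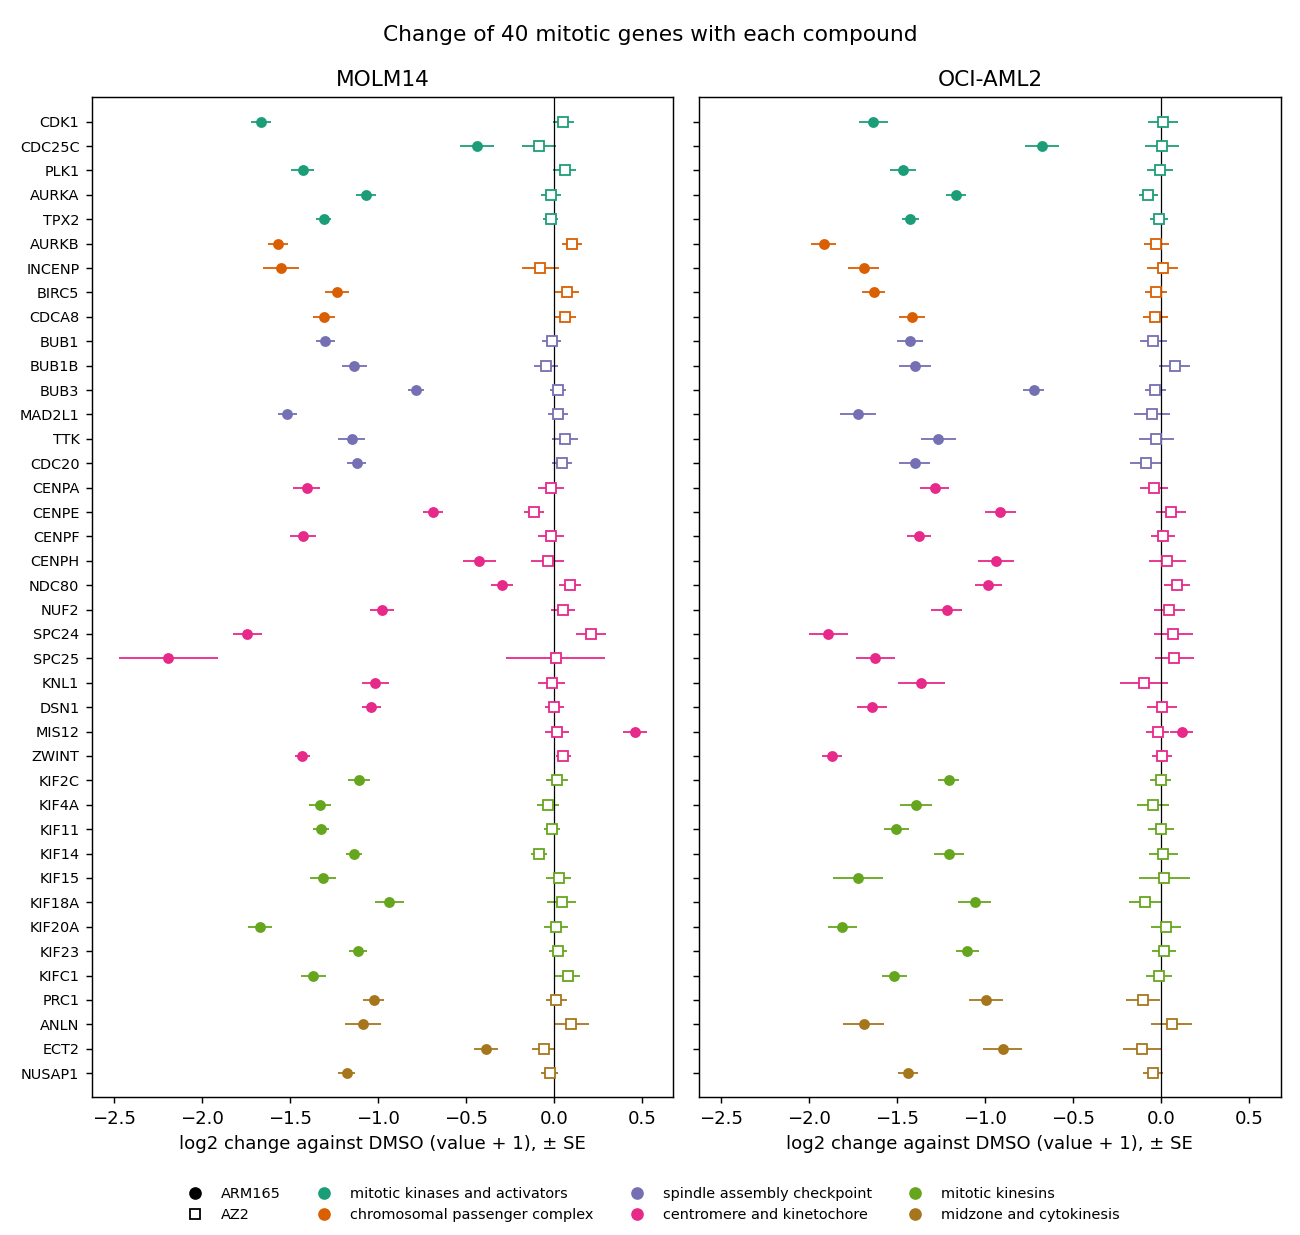
Log2 change of (value + 1) against DMSO for the 40 genes in MOLM14 (left) and OCI-AML2 (right), with bars of 1 SE (4 libraries per group) and colours for the 6 role groups. Filled circles (ARM165) lie left of 0 for 39 genes in each line, from -2.19 for SPC25 in MOLM14 and -1.92 for AURKB in OCI-AML2, while open squares (AZ2) stay within -0.11 to 0.21.

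All 5 mitotic kinases and activators fell in both lines, with medians of -1.31 in MOLM14 and -1.42 in OCI-AML2. CDK1, the kinase that drives mitotic entry, read 13673, 13382, 13192 and 14171 with DMSO, 15234, 13892, 13150.1 and 14283 with AZ2 and 4116, 4227, 4029 and 4832 with ARM165 in the 4 MOLM14 libraries of each group. The OCI-AML2 readings of CDK1 were 8529.9, 9746, 7967 and 8639 with DMSO, 9256, 9006, 7762 and 9181 with AZ2 and 2555, 2579.5, 2861 and 3254 with ARM165. In both lines the ARM165 libraries were all lower than any DMSO or AZ2 library, and DMSO and AZ2 overlapped. The change with ARM165 was -1.66 ± 0.058 (SE, adjusted p = 1.79e-12) in MOLM14 and -1.64 ± 0.084 (adjusted p = 1.24e-10) in OCI-AML2.

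CDC25C, a phosphatase that activates CDK1, read 972, 708, 870.2 and 769 with DMSO, 801, 797, 705 and 811 with AZ2 and 583, 582, 592 and 684 with ARM165 in MOLM14. In OCI-AML2 it read 854, 727, 734 and 775 with DMSO, 707, 819.6, 816 and 762 with AZ2 and 555, 453, 419.8 and 512 with ARM165. It had the smallest fall of the 5 genes: the ARM165 libraries lay just under the lowest DMSO and AZ2 libraries in MOLM14 and further below them in OCI-AML2. Its change was -0.44 ± 0.096 (adjusted p = 0.000817) in MOLM14 and -0.68 ± 0.097 (adjusted p = 1.43e-05) in OCI-AML2. PLK1, the polo-like kinase needed for spindle assembly, read 2821, 2714, 2719 and 2777 with DMSO, 2930.1, 2781, 3023 and 2791 with AZ2 and 926, 938, 1127 and 1123 with ARM165 in MOLM14. Its OCI-AML2 values were 3881, 3621, 3818 and 3615 with DMSO, 3435, 3614, 3794 and 4055 with AZ2 and 1236, 1567, 1315 and 1293 with ARM165. Here too the ARM165 groups were separate and the other 2 groups overlapped, with changes of -1.43 ± 0.066 (adjusted p = 3.58e-11) and -1.47 ± 0.074 (adjusted p = 9.54e-11).

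AURKA, the Aurora kinase of the spindle poles, read 6031, 5623, 5882 and 5679 with DMSO, 5932, 5538, 5725 and 5779.7 with AZ2 and 2557, 2587, 2840.3 and 3127 with ARM165 in MOLM14. In OCI-AML2 the gene read 8774, 9018, 8392 and 8071 with DMSO, 7885, 7917, 8173 and 8616 with AZ2 and 3661, 3584, 3963 and 4078 with ARM165. Its ARM165 libraries were the lowest in each line, at 0.477 and 0.446 times the DMSO level, and DMSO and AZ2 libraries overlapped. The changes were -1.07 ± 0.058 (adjusted p = 2e-10) in MOLM14 and -1.16 ± 0.056 (adjusted p = 5.41e-11) in OCI-AML2. TPX2, which activates AURKA and brings it to spindle microtubules, was at 0.404 times its DMSO level in MOLM14 and changed by -1.42 in OCI-AML2.

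The chromosomal passenger complex corrects faulty attachments at centromeres and later acts at the midzone. Its 4 genes had the lowest median of the 6 role groups in both lines, -1.43 in MOLM14 and -1.66 in OCI-AML2, and all 4 fell in each. AURKB, its kinase, read 2062, 1991, 2025 and 2036 with DMSO, 2052, 2369.9, 2167 and 2142 with AZ2 and 640.5, 682, 694 and 716 with ARM165 in MOLM14. The corresponding OCI-AML2 values were 4569.6, 4745, 4758 and 4433 with DMSO, 4423, 4063, 4569 and 5169 with AZ2 and 1122, 1279, 1278 and 1216 with ARM165. The ARM165 libraries were close together and far under the others, at 0.337 and 0.264 times the DMSO level. The change was -1.57 ± 0.055 (adjusted p = 2e-12) in MOLM14 and -1.92 ± 0.070 (adjusted p = 2.82e-12) in OCI-AML2.

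CDCA8 (borealin), which helps to place the complex on centromeres, had the smallest mean fall of the 4 genes. It read 4930.3, 5157, 5117 and 4707 with DMSO, 5436, 5087, 5481 and 4805 with AZ2 and 2059, 1783, 2207 and 2006 with ARM165 in MOLM14. It read 5730.1, 6492, 6118 and 5541 with DMSO, 5920.4, 5754, 5817 and 5840.4 with AZ2 and 1901, 2479, 2246 and 2339.6 with ARM165 in OCI-AML2. The ARM165 libraries were again apart from the rest in both lines, with changes of -1.31 ± 0.063 (adjusted p = 5.56e-11) and -1.42 ± 0.074 (adjusted p = 1.32e-10). The scaffold INCENP changed by -1.55 ± 0.10 in MOLM14 and -1.69 ± 0.088 in OCI-AML2. For BIRC5 (survivin) the changes were -1.23 ± 0.068 and -1.63 ± 0.064.

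All 6 spindle assembly checkpoint genes fell in both lines, with medians of -1.14 in MOLM14 and -1.40 in OCI-AML2. MAD2L1, which encodes the MAD2 protein that binds CDC20, had the largest mean fall of them. It read 3341, 3592, 3259 and 3586 with DMSO, 3629, 3349.5, 3371 and 3640.1 with AZ2 and 1255, 1099.8, 1247 and 1218 with ARM165 in MOLM14. The OCI-AML2 libraries gave 5546, 6147, 4999 and 5081 with DMSO, 5616, 5142, 4679.9 and 5559 with AZ2 and 1579, 1361, 1711 and 1993 with ARM165 for it. The 4 ARM165 libraries were the lowest of each line, and the DMSO and AZ2 groups overlapped in both lines. Its change was -1.52 ± 0.056 (adjusted p = 3.1e-12) in MOLM14 and -1.72 ± 0.10 (adjusted p = 6.4e-10) in OCI-AML2.

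BUB3, which docks BUB1 and BUB1B at kinetochores, had the smallest mean fall of the checkpoint genes. In MOLM14 it read 18483, 17815, 18325 and 18129 with DMSO, 18975, 18120.3, 18834 and 18032 with AZ2 and 10118, 9937, 11092 and 11149 with ARM165. In OCI-AML2 the readings were 6505, 7226, 6544 and 6246 with DMSO, 6058, 6789, 6304 and 6800.1 with AZ2 and 3869.6, 3959, 3918 and 4316 with ARM165. Although smaller, the fall left no overlap between ARM165 and the other groups, with changes of -0.78 ± 0.043 (adjusted p = 2.56e-10) and -0.72 ± 0.059 (adjusted p = 2.8e-08). The kinase BUB1 changed by -1.30 ± 0.053 and -1.43 ± 0.074, and the kinase TTK (MPS1) by -1.15 ± 0.076 and -1.27 ± 0.099, in MOLM14 and OCI-AML2. BUB1B (BUBR1), which with MAD2 inhibits CDC20, changed by -1.13 ± 0.069 and -1.40 ± 0.089. CDC20 itself, the APC/C activator, changed by -1.12 ± 0.055 and -1.40 ± 0.089.

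The 12 centromere and kinetochore genes varied most among themselves. In each line 11 of 12 fell, and the changes ran from -2.19 to 0.46 in MOLM14 and from -1.89 to 0.12 in OCI-AML2. SPC25 is a subunit of the NDC80 complex, the rod that joins the kinetochore to microtubules. It read 225, 295, 243 and 291 with DMSO, 235, 226, 372 and 246 with AZ2 and 62.5, 39.7, 111 and 36.6 with ARM165 in MOLM14. The OCI-AML2 libraries read 653, 589.8, 670.1 and 512 with DMSO, 653, 595, 630.2 and 668 with AZ2 and 184, 181, 234 and 184 with ARM165. In MOLM14 the ARM165 libraries were all under the lowest DMSO library but differed among themselves by up to 111 against 36.6. The change was -2.19 ± 0.28 (adjusted p = 4.4e-06) in MOLM14, the largest SE of the 40 genes there, and -1.63 ± 0.11 (adjusted p = 3e-09) in OCI-AML2.

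MIS12 belongs to the complex that links the NDC80 complex to the inner centromere, and it was the one member that did not fall. It read 2119.6, 2114, 2031 and 2201 with DMSO, 2282, 1957, 2168 and 2172 with AZ2 and 2964, 2748, 2669 and 3323 with ARM165 in MOLM14. In OCI-AML2 its values were 2458, 2440.2, 2406 and 2475 with DMSO, 2438, 2554, 2282 and 2390.5 with AZ2 and 2581, 2352, 2852 and 2871 with ARM165. The 4 ARM165 libraries of MOLM14 were higher than every DMSO and AZ2 library, and those of OCI-AML2 overlapped both groups. It rose by 0.46 ± 0.067 (adjusted p = 1.64e-05) in MOLM14, and its change in OCI-AML2 was 0.12 ± 0.065 (95% interval -0.021 to 0.26, adjusted p = 0.124). Without OCI-AML2 ARM165 replicate 2, the lowest of the 4, the change there was 0.18 and passed the test (adjusted p = 0.0171). DSN1, a subunit of the same complex, changed by -1.04 ± 0.053 and -1.64 ± 0.086 in MOLM14 and OCI-AML2.

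Subunits of the NDC80 complex did not change by equal amounts. In MOLM14 the changes were -0.29 ± 0.064 for NDC80, -0.98 ± 0.068 for NUF2, -1.74 ± 0.085 for SPC24 and -2.19 ± 0.28 for SPC25. In OCI-AML2 they were -0.98 ± 0.075, -1.22 ± 0.089, -1.89 ± 0.11 and -1.63 ± 0.11 in the same order. In both lines the microtubule-binding pair, NDC80 and NUF2, fell less than the SPC24 and SPC25 pair that faces the chromosome; the difference between genes was not tested. The fall of NDC80 in MOLM14 did not pass the test with libraries scaled to equal totals (-0.10, adjusted p = 0.124). KNL1, the scaffold for BUB1 and BUB3, changed by -1.02 ± 0.078 and -1.36 ± 0.13 in MOLM14 and OCI-AML2, and its partner ZWINT by -1.43 ± 0.043 and -1.87 ± 0.056. The centromeric histone CENPA changed by -1.41 ± 0.075 and -1.29 ± 0.082, the kinetochore motor CENPE by -0.69 ± 0.058 and -0.91 ± 0.086, and the outer kinetochore protein CENPF by -1.43 ± 0.074 and -1.38 ± 0.068.

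The 9 mitotic kinesins are motors that act on chromosomes, spindle poles or midzone microtubules, and all 9 fell in both lines, with medians of -1.31 and -1.39. KIF20A, which carries the passenger complex to the midzone, had the largest fall. It read 1404, 1254, 1357 and 1421 with DMSO, 1446, 1331, 1411 and 1299 with AZ2 and 387, 457, 439 and 419 with ARM165 in MOLM14. Its values in OCI-AML2 were 1165, 1238, 1016 and 1087 with DMSO, 1137, 1187, 1018 and 1257 with AZ2 and 316, 335, 312 and 315 with ARM165. The ARM165 libraries were grouped at 0.313 and 0.285 times the DMSO level. The changes were -1.67 ± 0.068 (adjusted p = 8.92e-12) and -1.81 ± 0.084 (adjusted p = 3.53e-11).

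KIF18A, which damps chromosome movement at the metaphase plate, had the smallest mean fall of the kinesins. It read 666, 603, 696 and 637 with DMSO, 719.8, 654, 668 and 645 with AZ2 and 344, 307, 328 and 381 with ARM165 in MOLM14. For OCI-AML2 the values were 599, 544, 564 and 562 with DMSO, 548, 555, 500.2 and 531 with AZ2 and 281, 244, 256 and 310.0 with ARM165. The ARM165 libraries were lower than all others in both lines, with changes of -0.94 ± 0.082 (adjusted p = 5.68e-08) and -1.06 ± 0.092 (adjusted p = 5.33e-08). KIF15, which helps KIF11 to hold the poles apart, changed by -1.32 ± 0.073 in MOLM14 and -1.72 ± 0.14 in OCI-AML2, and the minus-end motor KIFC1 by -1.37 ± 0.072 and -1.52 ± 0.073. KIF11 itself, the motor that pushes the poles apart, was at 0.399 and 0.352 times its DMSO level. The microtubule depolymerase KIF2C changed by -1.11 ± 0.062 and -1.21 ± 0.061. Among the midzone motors, KIF23, KIF14 and KIF4A changed by -1.12 ± 0.051, -1.14 ± 0.046 and -1.33 ± 0.064 in MOLM14 and by -1.10 ± 0.067, -1.21 ± 0.083 and -1.39 ± 0.090 in OCI-AML2.

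The 4 midzone and cytokinesis genes fell in both lines, with medians of -1.05 and -1.22. ANLN (anillin), a scaffold of the cleavage furrow, read 904, 1053, 1048 and 1012 with DMSO, 980.2, 1184, 1128 and 1017 with AZ2 and 422, 409.8, 563 and 509 with ARM165 in MOLM14. OCI-AML2 libraries gave 1319, 1489, 1164 and 1284 with DMSO, 1411, 1307, 1448 and 1299 with AZ2 and 372, 329, 432 and 509 with ARM165. The ARM165 libraries were lowest in both lines, and the change was -1.08 ± 0.10 (adjusted p = 1.18e-07) in MOLM14 and -1.69 ± 0.12 (adjusted p = 3.42e-09) in OCI-AML2. ECT2, the exchange factor that switches on RhoA at the furrow, read 797, 761, 774 and 798 with DMSO, 744, 728, 741 and 793 with AZ2 and 598, 580.1, 554 and 664 with ARM165 in MOLM14. In OCI-AML2 ECT2 read 768, 782, 584 and 693 with DMSO, 779.8, 607, 580.5 and 654 with AZ2 and 376, 386, 364 and 376 with ARM165. Its ARM165 libraries were only a little under the others in MOLM14 and clearly under them in OCI-AML2, with changes of -0.39 ± 0.068 (adjusted p = 0.000107) and -0.90 ± 0.11 (adjusted p = 2.39e-06). With ARM165 the midzone bundler PRC1 was at 0.492 times its DMSO level in MOLM14 and 0.501 times in OCI-AML2. For the spindle protein NUSAP1 the changes were -1.18 ± 0.049 and -1.44 ± 0.058.

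**Figure D2:**
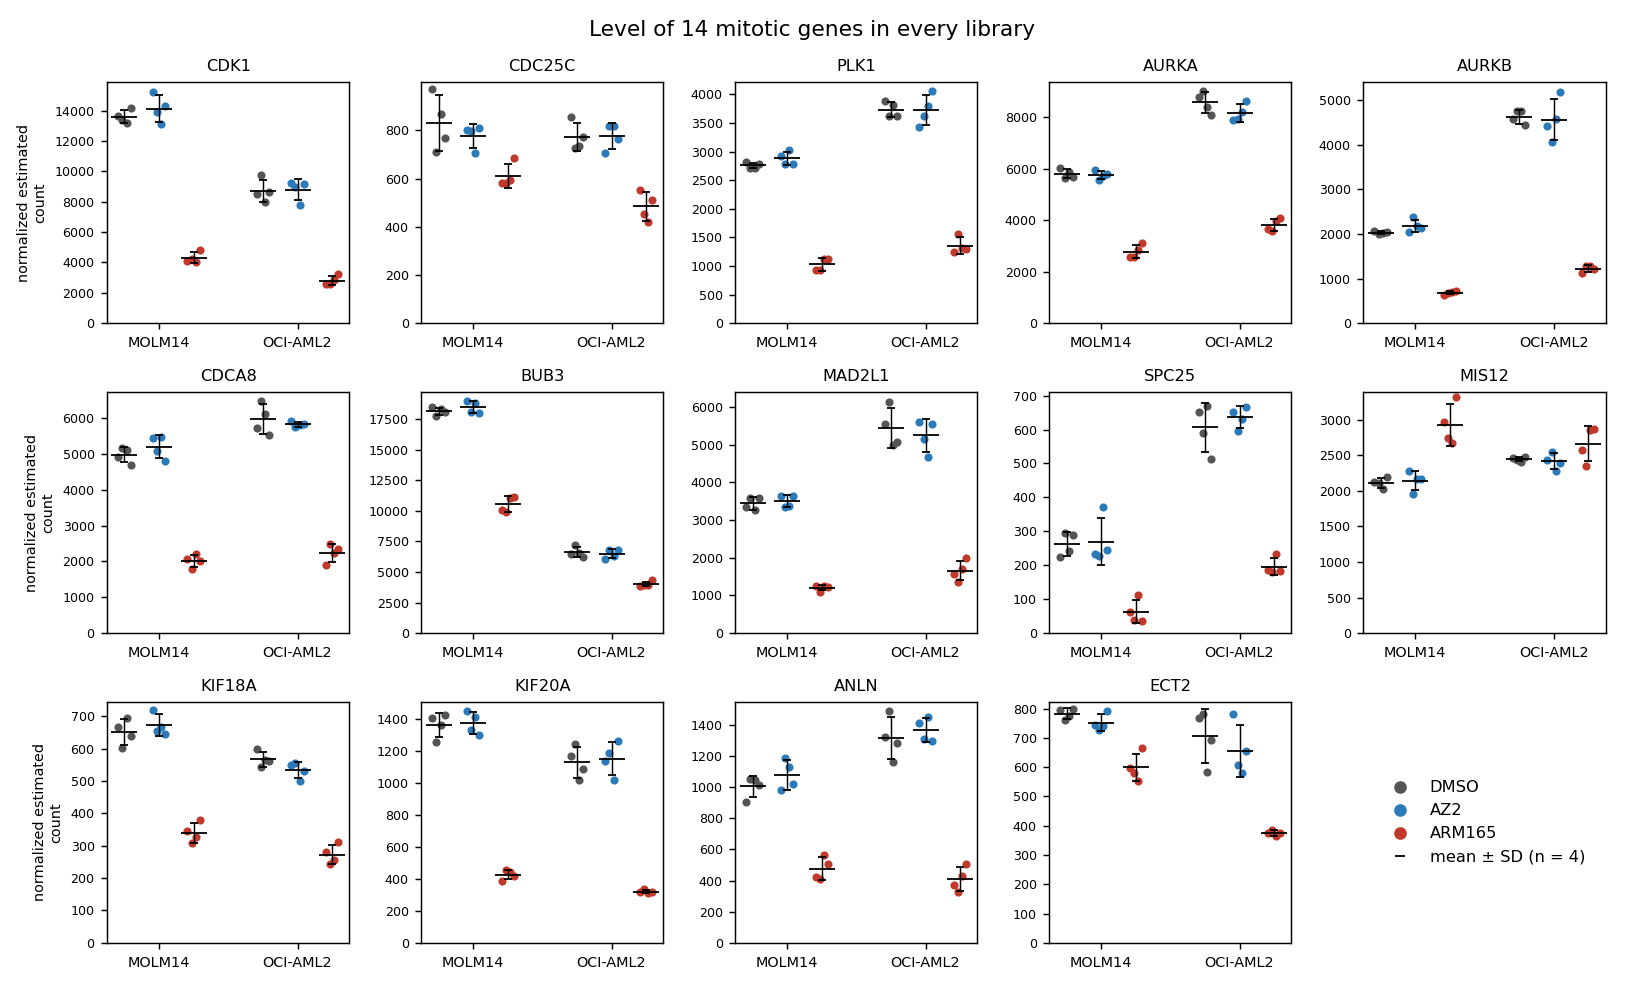
Normalized estimated count of 14 of the genes in every library (points), with the mean and SD of the 4 libraries of a group (bars), by line and treatment, on linear axes that start at 0. The ARM165 points (red) lie under the DMSO and AZ2 points for 13 genes in both lines, and MIS12 is the exception; the lines were scaled separately, so heights are not compared between them.

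Genes of G2 and M phase often carry a cell cycle genes homology region, TTTGAA, close to the start of transcription, where complexes of the MuvB core bind, with CCAAT boxes for the factor NF-Y upstream of it. Both were searched on both strands in RefSeq promoters (GRCh38.p14, 250 bases before to 50 after the start), which held 33 of the 40 genes. There were 35116 promoters of this length for 27305 symbols, and only the first listed for each symbol was searched. Other starts of a gene were not covered, and only these exact letters were sought. TTTGAA was found in 24 of 33 promoters (72.7%), against 15.4% of the 27305 gene symbols with a promoter of this length. CCAAT was found in 24 of 33 (72.7%), against 35.7%, and both in 19 of 33 (57.6%), against 6.08%. Of the 28 TTTGAA matches in these genes, 22 (78.6%) began within 50 bases of the start on either side, against 27.0% of the matches in all promoters. Of the 45 CCAAT matches, 27 lay in the 60 bases upstream of that window, as did 33.1% of the CCAAT matches in all promoters. A match is a description of the letters and not a shown site.

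Promoters are printed for the genes with the largest mean falls that had one (SPC25 and SPC24), for those with the smallest fall and the rise (CDC25C and MIS12), and for PLK1 and CDC20. Each runs 5′ to 3′ along its gene, and capitals mark TTTGAA or CCAAT on either strand, so TTCAAA and ATTGG are the same motifs read from the other strand. SPC25 lies at chr2:168890381-168890680 on the minus strand, SPC24 at chr19:11155733-11156032 on the minus strand, CDC25C at chr5:138338306-138338605 on the minus strand, MIS12 at chr17:5486124-5486423 on the plus strand, PLK1 at chr16:23678639-23678938 on the plus strand and CDC20 at chr1:43358731-43359030 on the plus strand.
SPC25: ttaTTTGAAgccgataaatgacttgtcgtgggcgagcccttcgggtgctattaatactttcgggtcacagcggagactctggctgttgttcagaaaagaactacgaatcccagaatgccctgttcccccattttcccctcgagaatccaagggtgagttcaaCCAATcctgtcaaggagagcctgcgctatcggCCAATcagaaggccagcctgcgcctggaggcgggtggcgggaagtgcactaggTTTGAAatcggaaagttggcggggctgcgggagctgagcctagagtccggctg
SPC24: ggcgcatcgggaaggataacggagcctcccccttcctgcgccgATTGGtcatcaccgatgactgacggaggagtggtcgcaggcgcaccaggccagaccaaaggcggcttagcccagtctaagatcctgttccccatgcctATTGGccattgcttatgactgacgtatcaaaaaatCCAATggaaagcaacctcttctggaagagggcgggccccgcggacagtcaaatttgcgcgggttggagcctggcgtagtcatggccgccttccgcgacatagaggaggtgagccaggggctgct
PLK1: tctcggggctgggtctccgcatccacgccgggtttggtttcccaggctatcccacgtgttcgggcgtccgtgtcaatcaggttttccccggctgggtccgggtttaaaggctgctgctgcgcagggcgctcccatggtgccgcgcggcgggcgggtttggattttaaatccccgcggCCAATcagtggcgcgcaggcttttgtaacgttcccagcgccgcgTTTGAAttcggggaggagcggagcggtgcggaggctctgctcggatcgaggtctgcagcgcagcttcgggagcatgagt
CDC20: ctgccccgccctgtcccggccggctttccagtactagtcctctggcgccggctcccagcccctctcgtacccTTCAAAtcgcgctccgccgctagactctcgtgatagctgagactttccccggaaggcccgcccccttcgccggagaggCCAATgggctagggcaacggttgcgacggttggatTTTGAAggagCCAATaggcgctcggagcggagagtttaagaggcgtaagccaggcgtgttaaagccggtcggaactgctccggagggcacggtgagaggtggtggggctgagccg
CDC25C: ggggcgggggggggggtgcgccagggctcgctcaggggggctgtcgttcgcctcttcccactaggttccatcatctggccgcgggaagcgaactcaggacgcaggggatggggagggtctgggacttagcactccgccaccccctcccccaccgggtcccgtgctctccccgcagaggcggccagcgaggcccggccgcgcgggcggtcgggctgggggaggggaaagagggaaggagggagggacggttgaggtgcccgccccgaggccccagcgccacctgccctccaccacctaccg
MIS12: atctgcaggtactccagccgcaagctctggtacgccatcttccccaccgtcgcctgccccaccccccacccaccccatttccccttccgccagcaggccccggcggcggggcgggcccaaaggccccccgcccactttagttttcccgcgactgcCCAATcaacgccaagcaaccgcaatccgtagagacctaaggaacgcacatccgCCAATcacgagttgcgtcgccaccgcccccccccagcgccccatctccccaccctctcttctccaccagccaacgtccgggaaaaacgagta

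SPC25 held 2 TTTGAA matches, the nearer one at position -3 with the start at 0, and CCAAT at -88 and -56. PLK1 held 1 of each, CCAAT at -73 and TTTGAA at -29, and CDC20 held 2 of each, with TTTGAA at -65 between CCAAT boxes at -100 and -55. SPC24, which fell by a similar amount to SPC25, held 3 CCAAT matches and 0 TTTGAA matches. MIS12 held 2 CCAAT matches, at -95 and -42, and 0 TTTGAA matches, and CDC25C held 0 of either in the 1 window searched for it. Of the 33 promoters, 9 lacked TTTGAA in the window searched: those of AURKB, BUB1, CDC25C, CENPE, DSN1, KIF20A, KIF2C, MIS12 and SPC24. Of these 9 genes, all but MIS12 fell in both lines, and AURKB, BUB1, KIF20A, MIS12 and SPC24 held CCAAT. Whether the letters bear on the falls was not tested.

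AZ2 left the 40 genes near their DMSO levels. The median change was 0.015 in MOLM14 and -0.0039 in OCI-AML2, and the changes ran from -0.11 (CENPE) to 0.21 (SPC24) and from -0.11 (ECT2) to 0.090 (NDC80). None passed in limma, and at an unadjusted p under 0.05 there was 1 of 40 in MOLM14 (5.88% of all genes) and 0 of 40 in OCI-AML2 (4.77%). That gene was SPC24, named after its values were seen, at 0.21 ± 0.085 (adjusted p = 0.815). The 95% intervals of the 40 changes together spanned -0.59 to 0.61 in MOLM14, both ends from SPC25, and -0.38 to 0.33 in OCI-AML2; these are the outermost limits over the genes. For CDK1 the intervals were -0.070 to 0.18 and -0.17 to 0.19, for AURKB -0.014 to 0.22 and -0.18 to 0.12, and for PLK1 -0.079 to 0.20 and -0.16 to 0.15.

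The AZ2 and DMSO libraries overlapped for 38 of 40 genes in MOLM14 and 40 of 40 in OCI-AML2. The exceptions were CENPE, at 1708 to 1956 with AZ2 and 1963 to 2087 with DMSO, and KIF14, at 9682 to 10239 and 10296 to 10669.8. Groups did not overlap for 4.43% of all genes in MOLM14 and 2.67% in OCI-AML2, and neither gene passed the test (adjusted p = 0.86 and 0.875 in limma).

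The compounds were also compared directly, at doses that are not given and so are not known to match. Against AZ2, ARM165 lowered 39 of 40 genes and raised MIS12 in MOLM14, where 34.0% of all genes were lower and 36.1% higher, and lowered 39 of 40 in OCI-AML2 (31.4%). The median difference was -1.20 in MOLM14 and -1.38 in OCI-AML2. For CDK1 it was -1.72 ± 0.058 (adjusted p = 1.27e-12) and -1.65 ± 0.084 (adjusted p = 1.14e-10), and for CDC25C -0.35 ± 0.096 (adjusted p = 0.00413) and -0.68 ± 0.097 (adjusted p = 1.29e-05). This comparison uses the same ARM165 libraries as the one against DMSO and is not independent of it.

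The falls were deeper in OCI-AML2 for part of the set. The difference of the ARM165 change (OCI-AML2 minus MOLM14) was below 0 for 33 of 40 genes, against 6654 of the 14287 genes kept in both lines. It passed the test as lower for 12 of 40 and as higher for 0, where 18.1% of all genes passed as lower and 24.3% as higher. By role these were 6 of 12 centromere and kinetochore genes, 3 of 4 midzone and cytokinesis genes, 2 of 4 passenger complex genes, 1 of 6 checkpoint genes, and 0 of the 5 kinases and activators and 0 of the 9 kinesins (at an unadjusted p under 0.05, met by 49.0% of all genes, there were 2 kinesins and 0 kinases or activators). The count depended on scaling: it was 21 with quantile normalization, 21 with equal upper quartiles and 27 with equal totals. Equal totals also changed the split over all genes, from 2582 lower and 3471 higher to 3821 lower and 2382 higher. The roles with 0 calls are not shown to respond alike in the lines, since with equal totals 3 kinases and activators and 6 kinesins passed as lower.

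NDC80 differed most. Its MOLM14 libraries read 856, 828, 895 and 851 with DMSO, 964, 899, 871 and 922 with AZ2 and 681, 648, 749 and 723 with ARM165, and its OCI-AML2 libraries read 999, 1041, 954 and 910.4 with DMSO, 1059, 999.9, 1082 and 1012 with AZ2 and 462, 473, 494 and 548 with ARM165. With ARM165 it was 0.816 times the DMSO level in MOLM14 and 0.506 times in OCI-AML2, and the difference of the log2 changes was -0.69 ± 0.092 (adjusted p = 1.68e-06). DSN1 read 3277, 3019, 3472 and 3177 with DMSO, 3433, 3049.7, 3201 and 3278 with AZ2 and 1583, 1554, 1509 and 1647 with ARM165 in MOLM14 and 3353, 3579, 3089 and 3145 with DMSO, 3335, 3301, 3187 and 3385 with AZ2 and 1019, 870.0, 1178 and 1173 with ARM165 in OCI-AML2. Its ratios to DMSO were 0.487 and 0.320, with a difference of -0.60 ± 0.10 (adjusted p = 4.8e-05). CENPH, of the inner kinetochore network on CENPA chromatin, read 1173, 1085, 1165 and 1125 with DMSO, 1203, 1102, 1044 and 1093 with AZ2 and 815, 684, 913 and 1014 with ARM165 in MOLM14 and 1085, 1418, 1257 and 1182 with DMSO, 1109.6, 1375, 1206 and 1375 with AZ2 and 603, 645, 577 and 753 with ARM165 in OCI-AML2. Its ratios were 0.746 and 0.522, with a difference of -0.52 ± 0.15 (adjusted p = 0.00686).

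For ANLN and ECT2, whose values are given above, the differences were -0.60 ± 0.16 (adjusted p = 0.00395) and -0.51 ± 0.13 (adjusted p = 0.00209). The remaining 7 that passed were ZWINT, BIRC5, AURKB, KNL1, MIS12, CDC20 and NUSAP1, from -0.44 (ZWINT) to -0.26 (NUSAP1). For MIS12 the difference is that of a rise in MOLM14 and no called change in OCI-AML2. KNL1 and CDC20 were close to the threshold (adjusted p = 0.0447 and 0.0429). SPC25 was the one gene whose difference was far above 0, at 0.57 ± 0.32 (95% interval -0.10 to 1.24, adjusted p = 0.166), and it did not pass. CDK1 had an interval of -0.19 to 0.25 and PLK1 one of -0.25 to 0.17, both with the deposited scaling. The median difference of the 5 kinases and activators was -0.098 with that scaling and -0.26 with equal totals. For AZ2 the difference between lines passed for 0 of 40 genes, and for 0.0280% of all genes; at an unadjusted p under 0.05 there were 0 of 40, against 5.22%. Across the 40 genes, the ARM165 changes in the lines had a Pearson r of 0.867, against 0.717 over all 14287 genes; this is across genes, which are not independent replicates.

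**Figure D3:**
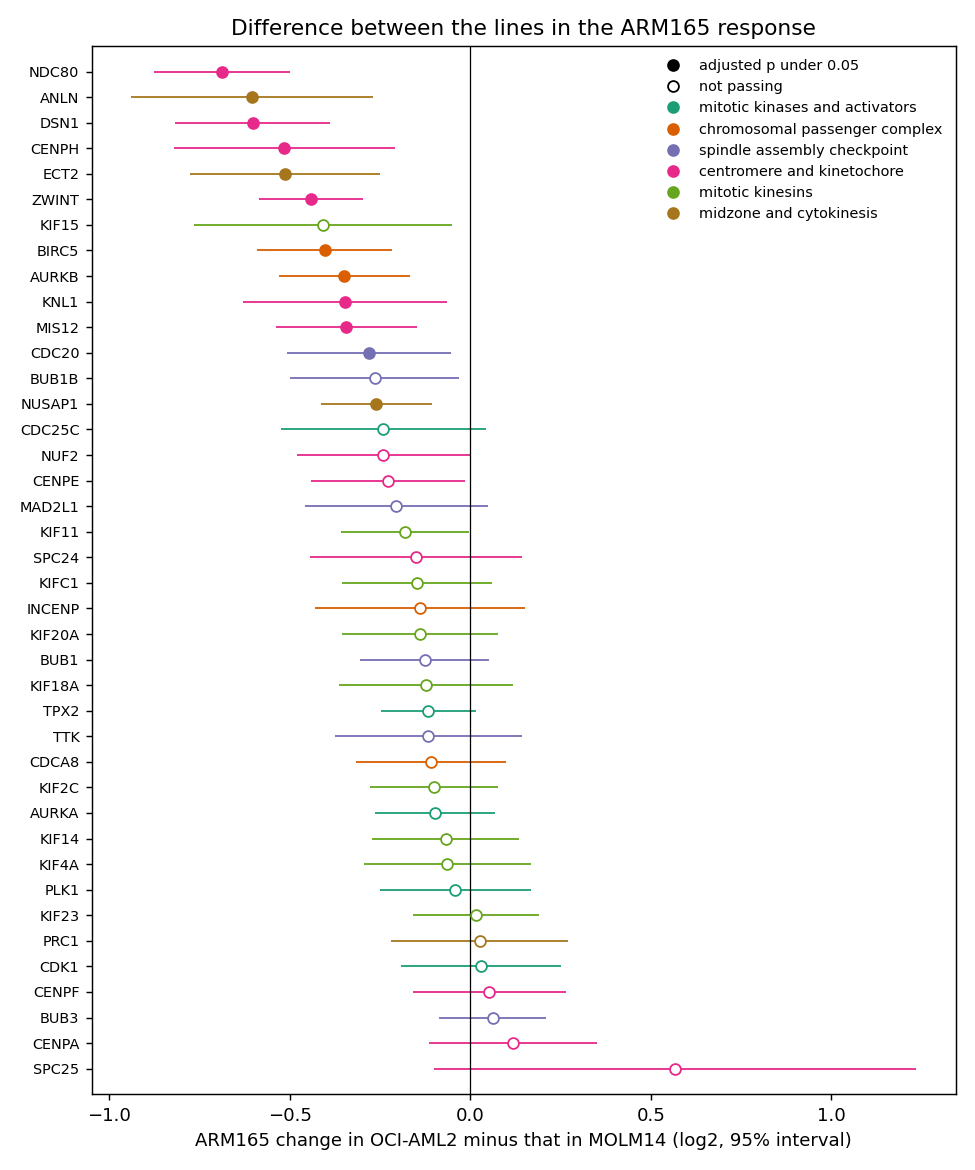
Difference of the log2 ARM165 change between lines (OCI-AML2 minus MOLM14) for each of the 40 genes, in order of size, with 95% intervals from the fit of 24 libraries. Filled points mark the 12 genes with an adjusted p under 0.05, all left of 0 and led by NDC80 at -0.69; SPC25, at 0.57, has the widest interval.

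The rest of the mitotic machinery was read from 7 further lists with 146 genes, described by counts against the share called lower over all genes, 34.0% in MOLM14 and 31.6% in OCI-AML2. Of 23 other centromere and kinetochore genes, 19 fell and 0 rose in MOLM14, and 21 fell and 1 rose in OCI-AML2, with medians of -0.87 and -1.10. With equal totals the MOLM14 counts were 16 lower and 2 higher. CENPM, of the inner kinetochore, changed by -1.52 and -2.16 in MOLM14 and OCI-AML2, and SKA3, which helps kinetochores to follow microtubule ends, by -1.51 and -1.73. KNSTRN, a kinetochore and spindle protein, changed by -1.41 and -1.12, and CENPW and MIS18A, of the centromere and its loading machinery, by -0.89 and -0.97 and by -0.88 and -1.22.

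Of 24 other spindle and cytokinesis genes, 22 fell in MOLM14 and 23 in OCI-AML2, and 0 rose in either, while with equal totals 2 were called higher in MOLM14. STMN1, a microtubule destabilizer, changed by -1.71 and -1.82, the pole protein ASPM by -1.11 and -1.38, TACC3 by -1.24 and -1.41, SPAG5 (astrin) by -1.24 and -1.34 and CDCA3 by -1.42 and -1.76. Of 17 other regulators of mitotic entry, 16 fell and 1 rose in MOLM14 (13 and 1 with equal totals), and 14 fell and 1 rose in OCI-AML2. CCNB1, the cyclin partner of CDK1, changed by -1.42 and -1.16, and CCNA2 by -1.38 and -1.37. The CDK-binding proteins CKS1B and CKS2 changed by -1.04 and -1.35 and by -1.54 and -1.30, the phosphatase CDC25A by -1.43 and -1.70 and PKMYT1, a kinase that inhibits CDK1, by -1.16 and -1.75. The gene that rose was WEE1, the other kinase that inhibits CDK1, at 0.65 ± 0.10 (adjusted p = 4.9e-05) and 0.52 ± 0.11 (adjusted p = 0.000497), and it was named after its values were seen.

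Other checkpoint, APC/C and separase genes were mixed. Of 27, 15 fell and 3 rose in MOLM14, and 14 fell and 7 rose in OCI-AML2. The MOLM14 split depended on scaling, with 13 lower and 9 higher and a median of -0.13 in place of -0.33 with equal totals. TRIP13, an ATPase that remodels MAD2, changed by -1.91 and -1.89, UBE2C, the ubiquitin-conjugating enzyme of the APC/C, by -1.63 and -1.49, and FBXO5 (EMI1), an APC/C inhibitor, by -1.44 and -1.47. MAD2L1BP (p31comet), which works with TRIP13 to remove MAD2 from the checkpoint complex, went the other way. It read 2668, 2620.1, 2577 and 2561 with DMSO and 3968, 3529, 3635 and 4139 with ARM165 in MOLM14, and 3118, 2930.3, 3171 and 2568 and 9208, 9359, 9246 and 9744 in OCI-AML2. The groups did not overlap in either line, and it rose by 0.55 ± 0.052 (adjusted p = 1.36e-07) and 1.68 ± 0.066 (adjusted p = 5.68e-12). The 14 core subunits of the APC/C, a subset picked out after values were seen, had 6 lower and 2 higher in MOLM14 and 5 lower and 5 higher in OCI-AML2. ANAPC15, the subunit that helps to release the checkpoint complex, fell by 1.48 and 0.94 on the log2 scale. Of 19 condensin and cohesin genes, 12 fell and 3 rose in MOLM14 (11 and 5 with equal totals), and 13 fell and 3 rose in OCI-AML2. Condensin subunits NCAPD2, NCAPG2 and NCAPH changed by -1.37, -1.18 and -1.42 in MOLM14 and by -1.30, -1.37 and -1.64 in OCI-AML2, and CDCA5 (sororin), which protects cohesin, by -1.11 and -1.84.

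Of 13 genes for the factors that act on G2 and M phase promoters, 7 fell and 3 rose in MOLM14, and 9 fell and 3 rose in OCI-AML2. The number higher in MOLM14 was 6 with equal totals and 2 with quantile normalization. FOXM1 and MYBL2, which encode activators that bind with the MuvB core, changed by -1.05 ± 0.062 and -1.38 ± 0.054 in MOLM14 and by -1.45 ± 0.055 and -1.80 ± 0.054 in OCI-AML2. RBL2 (p130), the pocket protein of the repressive DREAM complex, changed by -0.89 ± 0.054 and -0.48 ± 0.073, TFDP1, the partner of E2F factors, by -1.61 and -1.39, and RBBP4, a histone-binding subunit of MuvB, by -1.28 and -0.86. LIN9, a MuvB scaffold subunit, was at -0.025 ± 0.074 (adjusted p = 0.778) in MOLM14, where its sign depended on the scaling, and at -0.48 ± 0.078 (adjusted p = 5.47e-05) in OCI-AML2.

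A list of transport kinesins, kinesin light chains and dynein subunits served for comparison with the mitotic kinesins. It also holds KIF2A, and it was not limited to genes without a part in mitosis. Of 23 such genes, 22 were measured in MOLM14, where 1 fell and 15 rose, and 23 in OCI-AML2, where 2 fell and 18 rose. Over all genes 35.5% and 34.2% were called higher. The medians were 0.43 and 0.81, against -1.31 and -1.39 for the mitotic kinesins. KIF13A, an endosomal motor, read 224, 101, 66.3 and 28.2 with DMSO and 1724, 1688, 1620.1 and 1998 with ARM165 in MOLM14, and 154, 138, 129 and 213 and 2456, 2346, 2400.2 and 2614 in OCI-AML2. All ARM165 libraries were far above the DMSO libraries, and it rose by 4.42 ± 0.44 (adjusted p = 2.37e-07) and 3.97 ± 0.16 (adjusted p = 6.2e-12). KIF1B, KIF21B, the light chain gene KLC1 and the dynein chain gene DYNC1I2 rose by 1.30, 0.96, 0.89 and 0.73 in MOLM14 and by 1.02, 0.76, 1.40 and 1.68 in OCI-AML2. TTTGAA was found in 1 of 18 promoters of this list (5.56%).

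**Figure D4:**
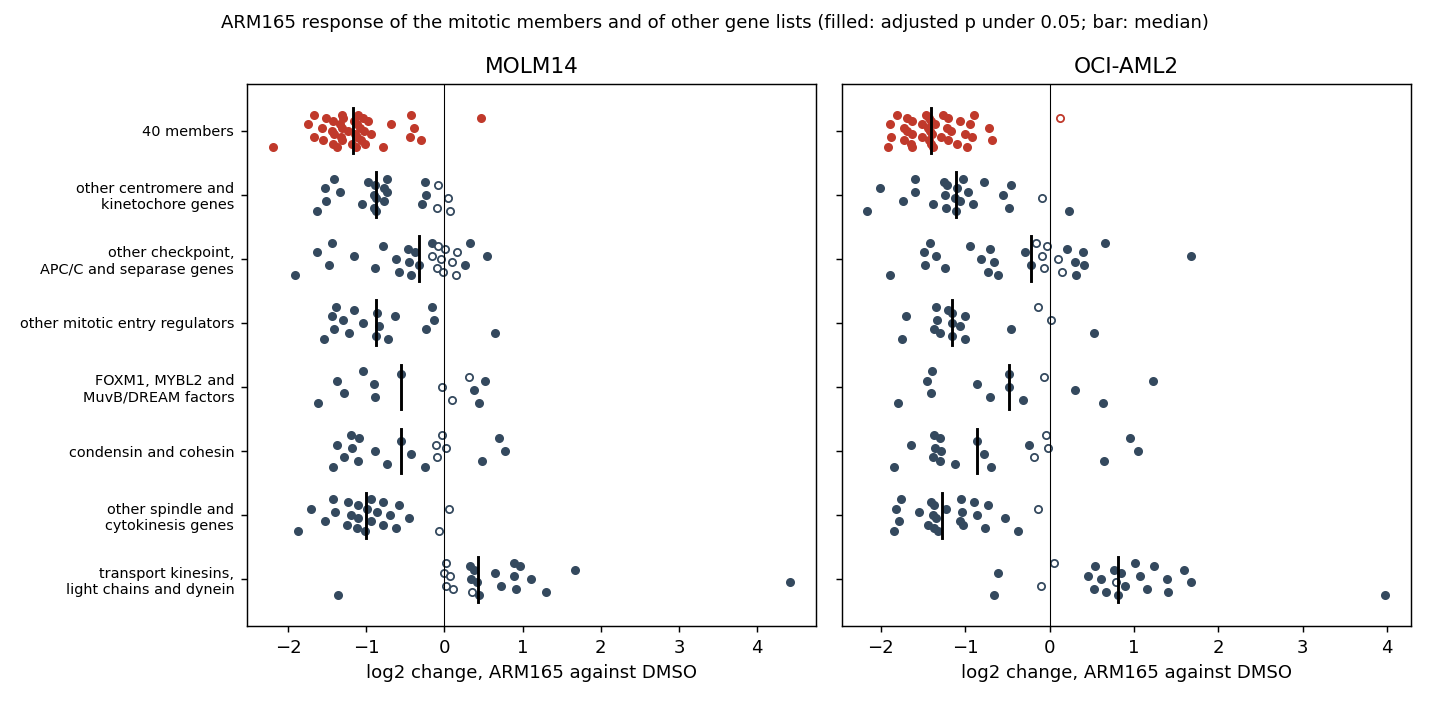
Log2 ARM165 change against DMSO of the 40 genes (red) and of 7 other lists (blue) in MOLM14 (left) and OCI-AML2 (right), 1 point per gene, filled where the adjusted p was under 0.05, with a bar at each list's median. The list of transport kinesins, light chains and dynein is the one with a median above 0, at 0.43 and 0.81, with KIF13A far to the right.

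Across the 24 libraries, each set against its line's DMSO mean, 35 of the 40 genes had a Pearson r of at least 0.9 to the mean of the other members, as did 2034 of the 14287 genes kept in both lines to the members' mean. The 5 below it were CDC25C (0.892), CENPH (0.895), NDC80 (0.884), ECT2 (0.875) and MIS12 (-0.655). Among the genes outside the set whose profile was most like the members' mean were RRM1, of ribonucleotide reductase (r = 0.998), BRI3BP (0.998), RCC2 (0.998) and the flap endonuclease FEN1 (0.997). The libraries of a group share their treatment, so these values describe the gap between ARM165 and the rest more than variation within groups.

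The 24 libraries held 35.4 M to 59.0 M estimated reads and 18889 to 19699 symbols above 0. Reads were inferred from the normalized values, as each library's total over its most common low value, taken as a single read. Libraries of a group had a Pearson r of 0.966 to 0.977 in log2 values. Of 8 myeloid markers, all 8 reached 10 in at least 1 library of each line; CD33 and SPI1 were abundant, while MPO and CD14 were at 148 or lower in every library. The sum of the 8 was 43709 to 49394 with DMSO and 32989 to 34957 with ARM165 in OCI-AML2. CEBPA was there at 23679 ± 734 and 12207 ± 242 (SD, n = 4). CEBPA, CD33 and MPO were lower in every OCI-AML2 ARM165 library than in any DMSO library. PTPRC (means 1782 and 2862) and CD14 (means 67.8 and 126) were higher there, and SPI1, ITGAM and CSF1R overlapped. In MOLM14 the sum overlapped between the DMSO and ARM165 groups, and its genes also moved both ways. CEBPA (means 27372 and 22679), CD33 and MPO were lower in every ARM165 library than in any DMSO library. PTPRC (means 2392 and 6229), SPI1 and ITGAM were higher, and CD14 and CSF1R overlapped. The sum of 5 T and NK cell markers in MOLM14 was 517 to 575 with DMSO and 1733 to 1926 with ARM165. That rise lay in CD8A (38.8 ± 13.3 and 1389.8 ± 58.4, SD, n = 4), while NKG7 was lower with ARM165 (means 504 and 401). CD3E was at 0 in all 8 of these libraries, CD3D at 12.7 or lower and CD2 at 6.7 or lower. The sum of 8 epithelial and fibroblast markers there was 2090.5 to 2398 with DMSO and 3631 to 3926 with ARM165, mostly KRT18. EPCAM was at 10.2 or lower in these libraries. The sum of 4 B cell markers in MOLM14, mostly PAX5, was 551 to 668 with DMSO and 312 to 393 with ARM165, with MS4A1 at or near 0. In OCI-AML2 the T and NK cell sum, almost all NKG7, was 751 to 903 with DMSO and 496 to 666 with ARM165, and the B cell sum 48.1 to 70.4 and 17.5 to 40.7. The epithelial and fibroblast sum overlapped between these groups there, and 4 erythroid markers summed to 50.9 or less in every library of either line. The part of these markers in the mitotic results was not tested.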

How the data were processed

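The 24 samples were put in 6 groups of 4 by the line and treatment in their labels. Libraries were stranded and came from poly(A) RNA (TruSeq), per the labels' protocols, and were quantified with kallisto, per the submitters' processing notes. Its version, the genome build, the annotation, the summing to genes and the scaling are not given in the sources used here. The deposited signal values are the authors' normalized estimated counts, in 1 table for each line. Each table has its own scaling and neither is per length, so levels are set side by side only within a line and a gene. Between 15.1 and 15.9% of the values above 0 were within 0.01 of a whole read, so counts were not recovered.

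Values were taken as log2(value + 1), which understates changes of low genes, and a gene was kept in a line when 4 or more libraries reached 10. Models with 1 mean per group were fitted over all kept genes with limma 3.58.1 (statmod 1.5.0, R 4.3.3), moderated by empirical Bayes along a variance trend. Each line's fit used its 12 libraries, with 9 residual degrees of freedom and 5.63 (MOLM14) or 5.67 (OCI-AML2) prior ones. Differences between lines came from 1 fit of 24 libraries over 14287 genes (18 residual and 5.32 prior). P-values were adjusted by Benjamini-Hochberg over all genes tested, and 95% intervals are of single genes. The median SE of the members' change was 0.065 in MOLM14 and 0.084 in OCI-AML2. The script was run on simulated data with known changes, but the pass mark was set after the first run, so passing is no independent check.

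The members and lists were chosen with earlier results of these data known. Values in every library were given for CDK1, PLK1, AURKA, AURKB, the members of most and least mean ARM165 change in each role group, and members not called lower. For differences between lines up to 5 of the largest calls each way were named, and from each further list up to 3 of smallest adjusted p per line plus FOXM1, MYBL2, CCNB1, CCNA2, RBL2 and LIN9. Other members were given by their change. Alternatives varied the added constant, the filter, the scaling, library weights, the groups in the fit, a replicate block and each library in turn. No columns were left out. 1 gene among those most like the members' mean is not reported here. Figures were drawn with matplotlib 3.10.9.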

Additional observations from a re-analysis of the deposited data

Results flagged for a closer look

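In 6 of 84 groups of 4 libraries screened for the named members, 1 library lay far from the other 3, with a gap over Dixon's critical share of the group's range; chance gives this in about 1 of 20 groups. These libraries were OCI-AML2 AZ2 replicate 3 for CDK1 at 7762, with the other 3 libraries at 9006 to 9256; MOLM14 AZ2 replicate 3 for CDC25C at 705, with the other 3 libraries at 797 to 811; and MOLM14 ARM165 replicate 4 for CDC25C at 684, with the other 3 libraries at 582 to 592. The others were MOLM14 AZ2 replicate 3 for SPC25 at 372, with the other 3 libraries at 226 to 246, OCI-AML2 ARM165 replicate 3 for SPC25 at 234, with the other 3 libraries at 181 to 184, and OCI-AML2 ARM165 replicate 2 for KIF20A at 335, with the other 3 libraries at 312 to 316.

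In 12 of the 40 genes the ARM165 change differed between the lines by limma, and in each the difference (OCI-AML2 minus MOLM14) was below 0. Over all genes 18.1% passed as lower and 24.3% as higher, and the count of 12 depended on the scaling. The centromere and kinetochore genes were at -0.69 ± 0.092 for NDC80 (adjusted p = 1.68e-06), -0.60 ± 0.10 for DSN1 (adjusted p = 4.8e-05), -0.52 ± 0.15 for CENPH (adjusted p = 0.00686), -0.44 ± 0.069 for ZWINT (adjusted p = 1.62e-05), -0.35 ± 0.14 for KNL1 (adjusted p = 0.0447) and -0.34 ± 0.094 for MIS12 (adjusted p = 0.00485). The midzone and cytokinesis genes were at -0.60 ± 0.16 for ANLN (adjusted p = 0.00395), -0.51 ± 0.13 for ECT2 (adjusted p = 0.00209) and -0.26 ± 0.074 for NUSAP1 (adjusted p = 0.00624). The passenger complex genes were at -0.40 ± 0.090 for BIRC5 (adjusted p = 0.000858) and -0.35 ± 0.088 for AURKB (adjusted p = 0.00234), and the checkpoint gene at -0.28 ± 0.11 for CDC20 (adjusted p = 0.0429).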

How the results depend on the processing

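The counts of genes called with ARM165 against DMSO or AZ2, and with AZ2 against DMSO, changed by at most 3 members in each line under the 10 other settings and with each library left out. Leaving out 1 library at a time gave 40 to 40 members called with ARM165 in MOLM14, 39 to 40 in OCI-AML2 (MIS12 added without ARM165 replicate 2), 0 to 0 with AZ2, and 10 to 16 in the difference between lines for ARM165. That last count was 12 as reported, 21 with quantile normalization, 27 with equal totals and 21 with equal upper quartiles, all lower in OCI-AML2; the cause was not tested. KNL1 lost its call between lines in 20 alternatives (adjusted p up to 0.0941) and CDC20 in 14 (up to 0.11), and NDC80 lost its call in MOLM14 with equal totals. LIN9 in MOLM14 reversed to 0.0028 with quantile normalization, 0.17 with equal totals (adjusted p = 0.0256) and 0.012 with equal upper quartiles. With 1 library left out it ran from -0.090 to 0.024, and it was above 0 without DMSO replicate 3 (0.023), ARM165 replicate 1 (0.0046) or ARM165 replicate 3 (0.024). Over all genes, AZ2 in OCI-AML2 called 17 genes as reported, 10 with the replicate block and 11 with equal upper quartiles. Between lines AZ2 called 4 genes, 2 with the block and 8 with only the groups compared. With 1 library left out, AZ2 called 0 to 3 genes in MOLM14, 9 to 17 in OCI-AML2 and 0 to 7 between lines; 9 in OCI-AML2 was without DMSO replicate 1 or AZ2 replicate 2, and 7 between lines without MOLM14 DMSO replicate 3. The replicate numbers showed no strong pairing of the samples: deviations of same-numbered libraries correlated at -0.0373 to 0.0558, and 0 of 24 pairs were over 0.1. Between AZ2 and ARM165 these correlations were all above 0 (0.0094 to 0.0558), and most libraries correlated best with their own number. In the comparisons with DMSO most did not. With the replicate number as a block, 40 members were called with ARM165 in MOLM14, 39 in OCI-AML2 and 11 between lines, and 0 with AZ2. Precision differed among members: SPC25, with the lowest readings (from 36.6 in MOLM14), had an SE of 0.28 there, against a median SE of 0.065; whether depth sets this was not tested.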

Other observations

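The promoter search was also run on the other mitotic lists. TTTGAA was found in 13 of 21 (61.9%) of the other spindle and cytokinesis genes, 7 of 14 of the other mitotic entry regulators, 7 of 17 (41.2%) of condensin and cohesin genes, 6 of 19 (31.6%) of the other centromere and kinetochore genes, and 6 of 25 (24.0%) of the other checkpoint, APC/C and separase genes. CCAAT was found in 17 of 21 (81.0%) of the other spindle and cytokinesis genes and 10 of 14 (71.4%) of the other mitotic entry regulators. Its share was 52.9% for condensin and cohesin, 52.6% for the other centromere and kinetochore genes and 44.0% for the other checkpoint, APC/C and separase genes. Genes for the factors that act on G2 and M phase promoters had CCAAT in 4 of 11 (36.4%) and TTTGAA in 2 of 11 (18.2%). Both motifs were found in 12 of 21 (57.1%) of the other spindle and cytokinesis genes and in 0 of 11 (0%) of the factor genes. Between these lay the other mitotic entry regulators (35.7%), other centromere and kinetochore genes (15.8%), other checkpoint, APC/C and separase genes (12.0%), and condensin and cohesin (11.8%). Over all promoters the shares were 15.4% for TTTGAA, 35.7% for CCAAT and 6.08% for both. These are shares of promoters with the letters, in lists chosen with earlier results known, and no test was run on them.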
